A study of Mus musculus with 21 samples.

Results

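The 10 genes described here encode proteins of the acrosome, the secretory vesicle that caps the sperm nucleus, and of the machinery that builds it. *Acr*, *Acrbp*, *Spink2*, *Zpbp*, *Zpbp2*, *Dpy19l2*, *Spaca1*, *Spaca3*, *Spaca7* and *Acrv1* were chosen by name, and all 10 were found by symbol among the 24456 genes counted in each of 21 libraries. RNA was sequenced from fractions of mouse male germ cells, either wild type (WT) or H2al2 KO. Pachytene spermatocytes, round spermatids and condensing spermatids had 3 libraries for each genotype, while spermatozoa had 2 WT libraries and 1 KO library. The KO removes H2A.L.2, a spermatid variant of histone H2A known for its part in the replacement of histones by protamines. No treatment was named in the labels. The strain and age of the mice, the targeted allele and the number of animals behind a fraction are not given in the sources used here. The WT round spermatid libraries come from independent fractions according to the study, and nothing is said of the other groups, for which the p-values measure a spread between libraries that may be technical.

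The acrosome forms from Golgi vesicles that fuse on one pole of the spermatid nucleus, flatten over it and are held there by a link to the nuclear envelope. Its matrix stores proteases as inactive precursors together with their inhibitors and binding partners, and its membranes carry proteins that later meet the egg coat and the egg plasma membrane. Many genes of the acrosome are transcribed before the vesicle is seen, some of them already in meiotic prophase.

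The results turn on a contrast between 4 genes and the other 6. RNA of the 4 rose steeply from pachytene spermatocytes to round spermatids, while the other 6 started nearer their round spermatid level. The stretches upstream of 3 of these steep genes and of *Zpbp2*, among the 6, are therefore shown. They run 5′ to 3′ on the strand of the gene and end at the first base before the RefSeq start, or before the GENCODE start where that lies further upstream. Build GRCm38.p6 was used, which has the coordinates of mm10. *Acrv1* lies on the plus strand at chr9:36692970-36693219, *Spaca3* on the plus strand at chr11:80858113-80858362, *Spaca7* on the plus strand at chr8:12572786-12573028 and *Zpbp2* on the plus strand at chr11:98550847-98551096. Capitals mark the letters TGACG, the core of a cAMP response element, and GTGTGT, on either strand, so that CGTCA and ACACAC are in capitals too.
Acrv1: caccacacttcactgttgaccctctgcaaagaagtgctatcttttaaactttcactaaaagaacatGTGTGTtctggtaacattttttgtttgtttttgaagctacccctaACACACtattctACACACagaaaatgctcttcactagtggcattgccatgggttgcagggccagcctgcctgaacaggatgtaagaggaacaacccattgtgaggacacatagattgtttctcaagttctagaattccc
Spaca3: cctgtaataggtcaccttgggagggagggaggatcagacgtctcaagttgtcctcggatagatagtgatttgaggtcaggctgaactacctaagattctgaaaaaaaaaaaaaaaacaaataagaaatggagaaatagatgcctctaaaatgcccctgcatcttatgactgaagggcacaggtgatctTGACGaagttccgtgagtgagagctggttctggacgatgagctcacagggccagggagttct
Spaca7: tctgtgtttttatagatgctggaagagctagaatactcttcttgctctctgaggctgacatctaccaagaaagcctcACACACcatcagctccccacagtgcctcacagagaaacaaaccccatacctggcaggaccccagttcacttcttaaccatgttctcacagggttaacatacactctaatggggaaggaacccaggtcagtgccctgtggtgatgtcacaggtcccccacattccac
Zpbp2: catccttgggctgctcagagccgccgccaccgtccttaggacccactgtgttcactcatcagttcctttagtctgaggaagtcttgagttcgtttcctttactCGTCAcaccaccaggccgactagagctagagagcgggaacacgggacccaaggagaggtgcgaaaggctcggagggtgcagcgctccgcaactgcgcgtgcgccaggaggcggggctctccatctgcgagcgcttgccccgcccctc

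RefSeq windows of 250 bases before a start were at hand for 9 of the 10 genes, *Acr* being the exception, and for 27025 genes in all. TGACG was present in a window of 4 of the 9 (*Acrbp*, *Spaca1*, *Spaca3* and *Zpbp2*) and of 19.8% of all genes. The whole palindrome TGACGTCA was found in 0 of the 9 and in 1.77% of all genes. GTGTGT was present in 3 of the 9 (*Acrv1*, *Spaca7* and *Spink2*) and in 16.8% of all genes. There were 7 matches in a window of *Spink2*, whose other windows had 0, 3 in *Acrv1* and 1 in *Spaca7*. TATAAA was found in 1 of the 9, *Spaca7*, and in 14.3% of all genes. These matches are a description of letters in a window. TGACG was present both in steep genes and in others of the 9, as was GTGTGT.

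The libraries held 2772995 to 8201682 counts on genes, with the fewest in spermatozoa. The row *H2afb1*, taken to be the gene of H2A.L.2 from a RefSeq synonym, followed the genotype labels, while GENCODE gives that name to another place on the X chromosome: it stood at 14.5 to 40.8 normalised CPM (counts scaled by TMM to a library total of 1000000) in WT and 3.16 to 4.92 in KO pachytene libraries, at 201 to 211 against 20.7 to 25.4 in round and at 160 to 250 against 26.5 to 35.7 in condensing libraries. Round spermatid markers (6 genes) were at 25% to 31.1% of their WT round mean in the WT pachytene libraries, and elongating spermatid markers (8 genes) at 7.91% to 19.6%. Spermatocyte markers (7 genes) summed to 440 to 1230 CPM in WT pachytene, 309 to 459 in WT round and 568 to 716 in WT condensing libraries. The pachytene range overlaps both others, so in WT the pachytene label was only partly borne out by them. In KO the sums were 829 to 1600 in pachytene, 255 to 443 in round and 628 to 711 in condensing libraries. *Syce3* had a lower mean in pachytene than in round libraries of either genotype. Sertoli cell markers (8 genes) stood at 47.1 to 62.0 CPM in WT round and 510 to 677 CPM in WT condensing libraries. WT round replicates 2 and 3 were closer to each other than any other pair. Their mean chi-square per gene was 1.06 against 1.90 to 12.2 in the other pairs, over genes with 100 to 1000 summed counts. Over the 10 acrosome genes, which held more counts in these libraries, it was 3.34, beside 1.27 to 45.9 in the other pairs. Counting alone gives 1. They were kept as separate libraries, with a summed alternative. Whether they are separate preparations cannot be told from these values.

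The first question was how much RNA of each acrosome gene the stages held. Levels between genes were compared per kilobase of exon. *Spink2*, which encodes a serine protease inhibitor of the acrosome, had the highest mean at each WT stage, though in WT spermatozoa its libraries overlapped those of *Zpbp2*. In WT pachytene spermatocytes it reached 427 ± 68.6 normalised CPM per kilobase (SD, n = 3), above all but 0.245% of 24064 genes with an exon length, and in WT round spermatids 399 ± 20.1, above all but 0.553%. *Zpbp2* at 174 ± 14.6, *Acrbp* at 158 ± 30.2 and *Acr* at 121 ± 21.8 followed in WT pachytene spermatocytes, and neighbours in this order overlapped between libraries. *Dpy19l2* stood at 86.1 ± 6.75 per kilobase, below the lowest *Acr* library. *Acrv1* at 51.7 ± 5.5 and *Zpbp* at 49.5 ± 2.12 overlapped. *Spaca1* at 36.5 ± 5.98, *Spaca3* at 32.8 ± 7.83 and *Spaca7* at 29.9 ± 3.59 closed the order, and each overlapped its neighbour.

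In WT round spermatids the order was different. *Acrv1* came next after *Spink2* with 222 ± 31.8 normalised CPM per kilobase, level with *Zpbp2* at 214 ± 6.78. *Acrbp* at 190 ± 14.6, *Spaca1* at 171 ± 23.7, *Acr* at 158 ± 3.16, *Spaca7* at 146 ± 30.5 and *Spaca3* at 120 ± 9.05 formed a run in which each gene overlapped the next. *Dpy19l2* at 102 ± 2.82 and *Zpbp* at 68.5 ± 2.68 lay below it, each without overlap with its neighbour. All 10 genes were thus among the 5.68% of genes with the highest levels per kilobase in WT round spermatids, where *Zpbp* set the lower end. In WT spermatozoa the levels ran from 36.9 ± 1.97 for *Spink2* (n = 2) to 6.95 ± 2.03 for *Spaca3*.

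**Figure D1:**
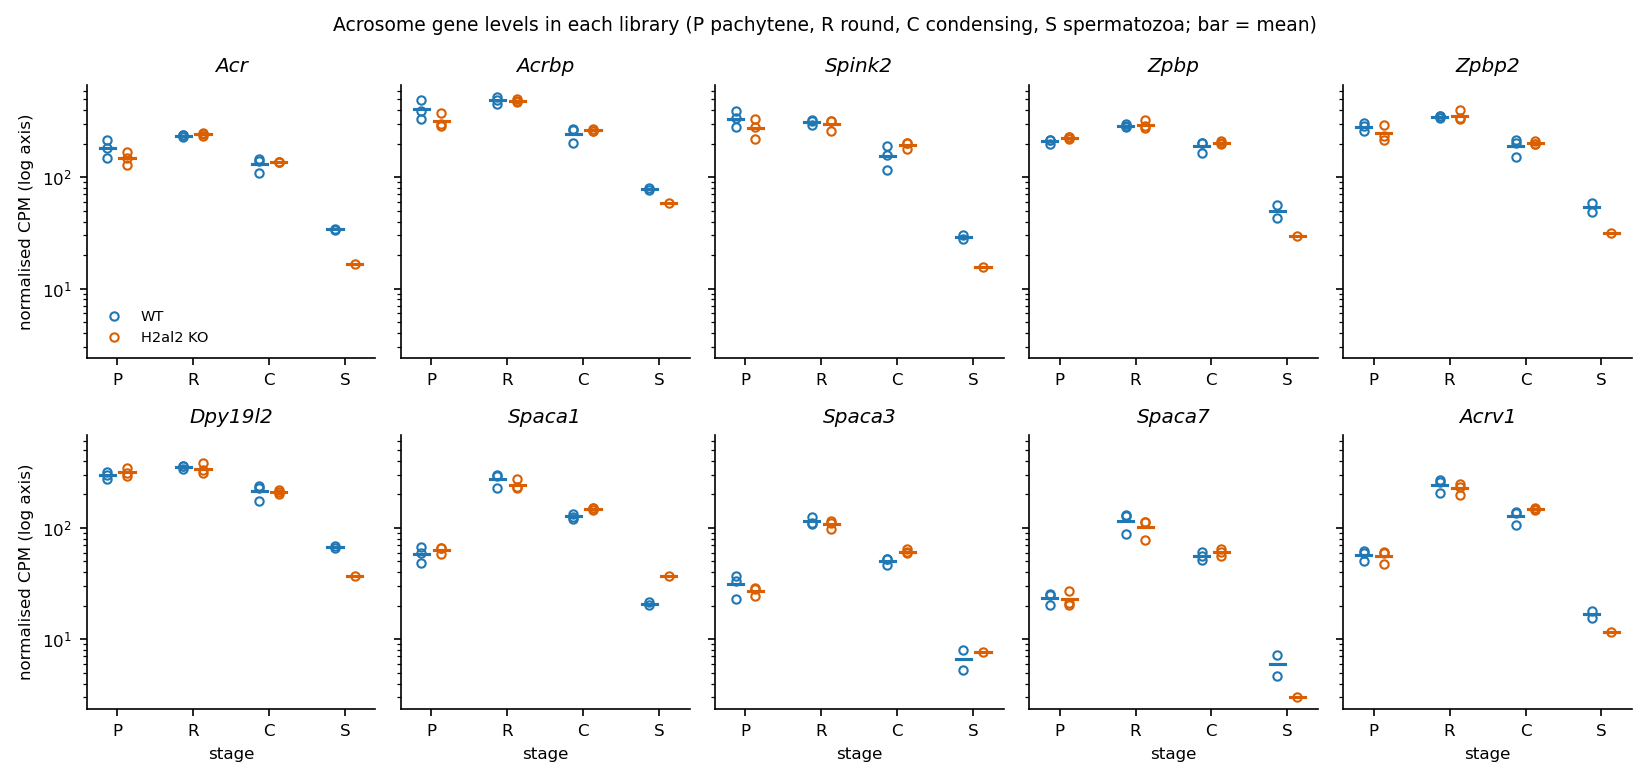
Normalised CPM (log axis) of the 10 genes in each library by stage; open points are libraries, bars are group means, blue is WT and orange H2al2 KO. *Spaca1*, *Spaca3*, *Spaca7* and *Acrv1* rise from pachytene (P) to round (R), the other 6 start nearer their round level, and all 10 are lower in condensing spermatids (C) and lowest in spermatozoa (S).

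Round spermatids were compared with pachytene spermatocytes to see which acrosome genes gain RNA after meiosis. By edgeR's quasi-likelihood test 7 of the 10 rose in WT and 0 fell at an adjusted p under 0.05, the threshold for a call throughout, where 34.4% of the 14011 genes tested rose. The median log2 fold change of the 10 was 0.46, beside -0.02 over all genes tested. The steep group consisted of *Spaca7*, *Spaca1*, *Acrv1* and *Spaca3*. These encode acrosomal matrix or membrane proteins, as do others of the 10, such as *Zpbp* and *Zpbp2*. In bulk RNA, more cells of a type and more RNA per cell cannot be told apart.

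*Spaca7*, whose protein is stored in the acrosome and released from it, had 25, 25.2 and 20.2 normalised CPM in the 3 WT pachytene libraries and 87.6, 128 and 130 in the 3 WT round libraries. It rose 5.0-fold (log2 2.32 ± 0.17 SE, adjusted p = 1.07e-07). *Spaca1*, an acrosomal membrane protein needed for the vesicle to take its shape, had 59.9, 66.8 and 47.9 in pachytene and 229, 297 and 292 in round libraries. Neither gene overlapped between the stages, and in both WT round replicate 1 was the lowest round library. *Spaca1* rose 4.79-fold (log2 2.26 ± 0.15, adjusted p = 5.98e-08).

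*Acrv1* encodes SP-10, a matrix protein long used to stage the growing acrosome. It had 61.7, 59.0 and 50.1 normalised CPM in WT pachytene and 204, 259 and 269 in WT round libraries, a rise of 4.38-fold (log2 2.13 ± 0.15, adjusted p = 9.95e-08). *Spaca3*, a lysozyme-like protein of the acrosome, had 33.3, 37.3 and 22.9 in pachytene and 108, 110 and 124 in round libraries. The stages again lay apart, with a rise of 3.73-fold (log2 1.90 ± 0.16, adjusted p = 2.95e-07). TGACG stands in the printed windows of *Spaca3* and of *Zpbp2*, which is not a steep gene, and GTGTGT in those of *Acrv1* and *Spaca7*.

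The other 6 genes moved less. *Zpbp* and *Zpbp2* encode zona pellucida binding proteins of the acrosomal matrix that help to compact the acrosome. *Zpbp* had 215, 200 and 216 normalised CPM in WT pachytene and 281, 303 and 288 in WT round libraries and rose 1.41-fold (log2 0.50 ± 0.12, adjusted p = 0.00187). *Zpbp2* had 288, 306 and 259 against 358, 357 and 338 and rose 1.26-fold (log2 0.34 ± 0.13, adjusted p = 0.0399). Both pairs of groups lay apart, but the call of *Zpbp2* was lost when any library but WT pachytene replicate 2 was left out, with log2 values of 0.27 to 0.38, and also with no filter (adjusted p = 0.0882) or with WT round replicates 2 and 3 summed (adjusted p = 0.0803).

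*Acr* encodes acrosin, the main serine protease of the acrosome, stored as proacrosin. It had 184, 214 and 149 normalised CPM in WT pachytene and 238, 232 and 241 in WT round libraries and rose 1.33-fold (log2 0.41 ± 0.15, adjusted p = 0.0225). That call was lost without WT pachytene replicate 1 or 3 or WT round replicate 3, with log2 values of 0.28 to 0.53 over the libraries left out, and when WT round replicates 2 and 3 were summed (adjusted p = 0.0533). With scaling by library size alone, which moved the median of all genes to -0.20, *Acr* (0.23) and *Zpbp2* (0.15) were no longer called.

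*Acrbp* encodes the binding protein that holds proacrosin inactive. It had 395, 490 and 336 normalised CPM in WT pachytene and 526, 452 and 497 in WT round libraries, which overlap (log2 0.31 ± 0.16, 95% interval -0.03 to 0.64, adjusted p = 0.0963). *Dpy19l2*, a protein of the inner nuclear membrane that anchors the acrosome to the nucleus, had 300, 272 and 318 against 341, 356 and 359 (log2 0.28 ± 0.13, 95% interval -0.01 to 0.57, adjusted p = 0.0782). *Spink2* had 337, 390 and 282 in pachytene and 297, 319 and 328 in round libraries (log2 -0.06 ± 0.17, 95% interval -0.43 to 0.31, adjusted p = 0.757). Its round libraries lay within the range of the pachytene libraries. *Acrbp* and *Dpy19l2* were each called as higher in round spermatids in 4 of 14 alternatives. Among these were a minimum of 10 counts in each library and 1 fit on 18 libraries. The DESeq2 Wald test was another (adjusted p = 0.0498 for *Acrbp* and 0.0412 for *Dpy19l2*).

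In H2al2 KO, 8 of the 10 genes rose from pachytene to round spermatids and 0 fell, where 36.5% of the 13877 genes tested rose. The steep genes ranged from 1.94 (*Spaca1*) to 2.13 (*Spaca7*) on the log2 scale. *Spaca1* had 65.4, 65.7 and 57.8 normalised CPM in the KO pachytene and 226, 231 and 273 in the KO round libraries. *Acrbp* had 286, 300 and 381 against 474, 509 and 481 and rose 1.5-fold (log2 0.59 ± 0.10, adjusted p = 4.52e-05). *Acr* with 0.70, *Zpbp2* with 0.51 and *Zpbp* with 0.38 on the log2 scale were also called. *Dpy19l2* (0.09, adjusted p = 0.427) and *Spink2* (0.10, adjusted p = 0.508) were not.

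Expressed as a share of the round spermatid mean of the same genotype, the level of the 4 steep genes together was 24.1%, 25.2% and 18.9% in the WT and 25.6%, 26.7% and 22.3% in the KO pachytene libraries. The other 6 together were at 84.4%, 91.9% and 76.5% in WT and 67.3%, 74.4% and 86.4% in KO. The split into 4 and 6 genes was made after the values were seen and was not tested. Round spermatid markers stood at 31.0%, 31.1% and 25% in the same WT and 28.8%, 33.0% and 29.9% in the same KO pachytene libraries. Single steep genes lay between 17.6% (*Spaca1* and *Spaca7*) and 32.7% (*Spaca3*) in WT, close to the range of these markers. The part of round spermatids carried over into the pachytene fraction in these values was not tested.

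**Figure D2:**
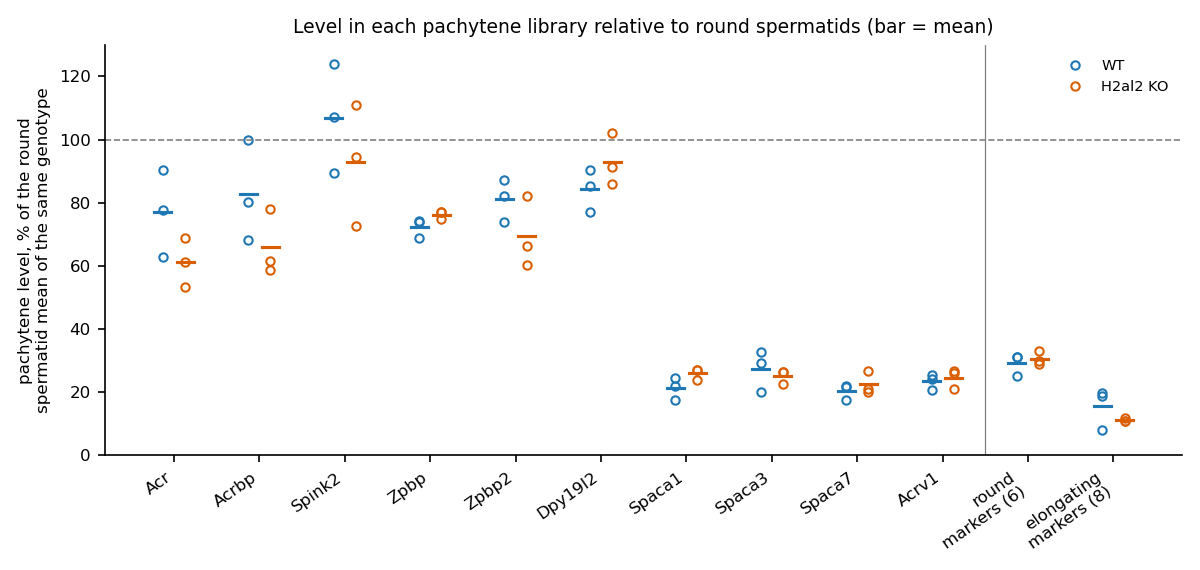
Level in each pachytene library as a percentage of the round spermatid mean of the same genotype, for the 10 genes and for the summed round (6 genes) and elongating (8 genes) spermatid markers; open points are libraries and bars means, blue WT and orange H2al2 KO. *Spaca1*, *Spaca3*, *Spaca7* and *Acrv1* lie between 17.6% and 32.7%, beside the round markers at 25% to 33.0%, while the other 6 genes lie between 53.2% and 124%.

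Condensing spermatids, in which the nucleus is compacted under the finished acrosome, were compared with round spermatids next. This comparison shares the round libraries with the one above. In WT, 10 of the 10 genes fell, where 21.8% of the genes tested fell, and the median log2 fold change of the 10 was -0.94, beside 0.04 over all genes. *Spaca3* fell most, from 108, 110 and 124 normalised CPM in WT round to 52.2, 52.2 and 46.2 in WT condensing libraries (log2 -1.16 ± 0.15, adjusted p = 6.8e-05). *Spaca1* fell from 229, 297 and 292 to 126, 134 and 120 (log2 -1.08 ± 0.14, adjusted p = 6.98e-05). *Zpbp* fell least, from 281, 303 and 288 to 202, 201 and 165 (log2 -0.60 ± 0.12, adjusted p = 0.00121). For each of the 10 genes no WT condensing library reached the lowest WT round library.

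The remaining genes fell to between 49.6% (*Spaca7*) and 61.5% (*Dpy19l2*) of the WT round level. *Spink2* went from 297, 319 and 328 normalised CPM to 192, 157 and 115, which was 50% of the round level (log2 -1.0 ± 0.17, adjusted p = 0.00049). *Acrbp* went from 526, 452 and 497 to 267, 272 and 201 (log2 -0.97 ± 0.16, adjusted p = 0.00032). *Acrv1* (log2 -0.91), *Zpbp2* (-0.86), *Acr* (-0.83) and *Dpy19l2* (-0.70) fell too. WT condensing replicate 3 was the lowest WT condensing library for 9 of the 10 genes, with *Spaca7* the exception. Each of the 10 calls held without it.

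In H2al2 KO, 10 of the 10 genes also fell, where 24.5% of the genes tested fell. The log2 fold changes ran from -0.88 for *Acrbp* to -0.53 for *Zpbp*, with a median of -0.71. *Spaca3* went from 111, 115 and 98.3 normalised CPM in the KO round to 60.1, 59.4 and 64.3 in the KO condensing libraries. *Spaca1* went from 226, 231 and 273 to 151, 150 and 146. The condensing fractions of both genotypes carried more Sertoli cell RNA than the round ones (494 to 560 CPM against 32.3 to 41.0 for the 8 markers in KO). Leydig cell markers (6 genes) stood at 88.1 to 133 CPM in KO condensing against 6.48 to 10.3 in KO round libraries. Spermatocyte markers (7 genes) summed to 628 to 711 against 255 to 443, with lower condensing means for *Spo11* and *Syce3*. In WT both sums were higher in condensing libraries too. The part of such cells in the falls was not tested. Round spermatid markers stood at 1390 to 1500 CPM in WT round and 961 to 967 in WT condensing libraries, with *Tssk3* the 1 of 6 whose mean was higher in condensing libraries. Elongating spermatid markers stood at 26700 to 29400 and 27300 to 40100 CPM, with lower condensing means for *Tnp1* (3620 and 2980) and *Tnp2* (3830 and 3200).

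**Figure D3:**
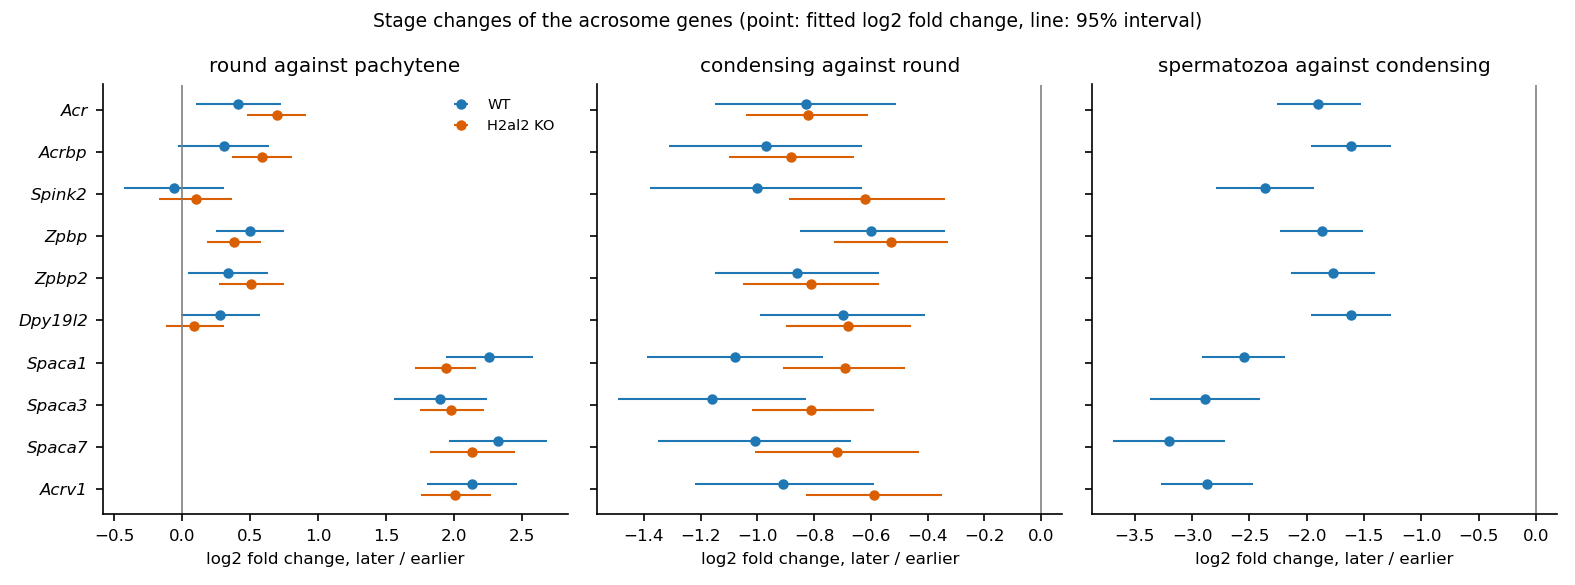
Fitted log2 fold change (point) with its 95% interval (line) of the 10 genes between successive stages, in WT (blue) and H2al2 KO (orange). *Spaca1*, *Spaca3*, *Spaca7* and *Acrv1* stand at 1.90 to 2.32 in WT from pachytene to round, the 10 genes lie between -1.16 and -0.60 in WT from round to condensing, and between -3.20 and -1.61 from condensing spermatids to spermatozoa, where KO had 1 library and was not tested.

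Spermatozoa hold little RNA, and WT spermatozoa were compared with WT condensing spermatids. Here 10 of the 10 genes fell, where 35.8% of the 15116 genes tested fell. The steep genes fell most. *Spaca7* went from 55.5, 51.9 and 61.1 normalised CPM to 4.66 and 7.28, on 16 and 21 counts, which was 10.9% of the condensing level (log2 -3.20 ± 0.24, adjusted p = 1.3e-10). *Spaca3* (log2 -2.89), *Acrv1* (-2.87) and *Spaca1* (-2.55) also fell. *Acrbp* and *Dpy19l2* fell least, each to 32.8% of the condensing level (log2 -1.61 ± 0.17). These levels are relative to the other RNA of a library and do not give the amount left per cell.

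*Acrbp* went from 267, 272 and 201 normalised CPM to 77.2 and 79.4, and *Dpy19l2* from 229, 237 and 173 to 66.5 and 68.7. Between them and the steep genes lay *Spink2* at 19.4%, *Acr* at 26.8%, *Zpbp* at 27.3% and *Zpbp2* at 29.3% of the condensing level. The 10 genes summed to 1250 to 1610 CPM in WT condensing and to 371 and 356 CPM in WT spermatozoa libraries. As a share of the WT condensing mean, this sum was 24.9% and 23.9%, beside 29.1% and 27.5% for the round spermatid markers. The elongating spermatid markers were at 99.1% and 87.6% in sum, but 6 of the 8 had a lower mean in spermatozoa, such as *Tnp1* (2980 and 378 CPM) and *Prm1* (4000 and 1100), while *Odf1* stood at 3020 and 15500. Macrophage markers (5 genes) stood at 20.5 to 25.2 CPM in WT condensing and at 242 and 245 CPM in WT spermatozoa libraries. Of 6 epididymis markers, *Crisp1* had a mean of 0.717 CPM in WT condensing and 1520 in WT spermatozoa libraries and *Adam7* 0.117 and 321, while *Cst8* had 239 and 25.7, and *Lcn5* and *Lcn8* had 0 counts in both. The part of such cells in the falls was not tested.

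The 4 steep genes made up 9.48%, 9.14% and 8.31% of the summed normalised CPM of the 10 genes in WT pachytene and 23.6%, 28.2% and 28.4% in WT round libraries. They were grouped for their rise between these stages, so this gain in share follows from the choice. Their share was 23.2%, 23.5% and 26.8% in WT condensing libraries and 13.4% and 14.3% in WT spermatozoa. In KO it was 7.93% to 11.3% in pachytene, 24.4% to 25.8% in round and 25.3% to 26.3% in condensing libraries. The WT round and condensing libraries overlapped in this share, and WT spermatozoa lay between them and the pachytene libraries.

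**Figure D4:**
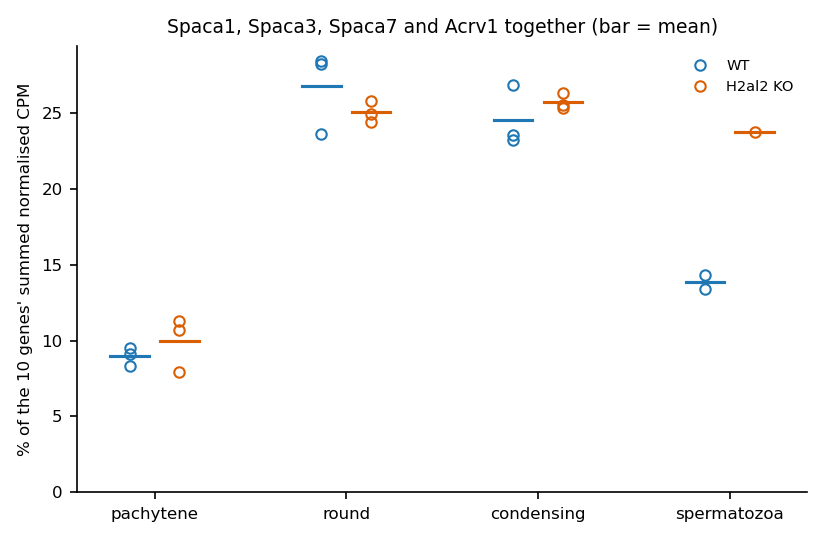
Share of *Spaca1*, *Spaca3*, *Spaca7* and *Acrv1*, grouped for their rise from pachytene to round, in the summed normalised CPM of the 10 genes, in percent, per library; open points are libraries and bars means, blue WT and orange H2al2 KO. WT libraries lie at 8.31% to 9.48% in pachytene, 23.2% to 28.4% in round and condensing cells and 13.4% to 14.3% in spermatozoa; the single KO spermatozoa library is at 23.7%.

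The effect of H2al2 loss was examined within each stage. In pachytene spermatocytes edgeR called 0 of the 10 genes, where 0.0% of the 12236 genes tested were called. *H2afb1* itself missed the threshold here (log2 -2.75 ± 0.37, adjusted p = 0.484). At an unadjusted p under 0.05 it counted 0 of the 10 and 815 of all genes. The log2 fold changes ran from -0.26 (*Acrbp*, 95% interval -0.57 to 0.05) to 0.19 (*Spaca1*, -0.10 to 0.47), and the adjusted p from 0.656 to 0.944. *Zpbp*, with 215, 200 and 216 normalised CPM in WT and 222, 229 and 229 in KO, was the 1 gene of the 10 without overlap between genotypes, where 11.4% of all genes tested had none. Spermatocyte markers were at 440 to 1230 CPM in WT and 829 to 1600 in KO pachytene libraries.

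In round spermatids 0 of the 10 were called, where 0.0156% of the 12804 genes tested were, that is 2 genes, 1 of them *H2afb1* (log2 -3.10 ± 0.10, adjusted p = 3.4e-08). A fit blocked by replicate number called 61 genes, and again 0 of the 10, whose adjusted p then ran from 0.515 to 0.997. Without the block the log2 fold changes ran from -0.18 (*Spaca7*, 95% interval -0.55 to 0.19) to 0.05 (*Acr*, -0.11 to 0.22). *Acrbp* had 526, 452 and 497 normalised CPM in WT and 474, 509 and 481 in KO libraries, a log2 fold change of 0.00 with an interval of -0.18 to 0.18. *Spaca7* had 87.6, 128 and 130 in WT and 78.3, 112 and 112 in KO libraries. The genotypes overlapped for each of the 10 genes, where 9.86% of all genes tested had no overlap. No gene of the 10 had an unadjusted p under 0.05, against 753 of all genes. DESeq2 called 0 of the 10 in each of the 3 stages.

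In condensing spermatids 0 of the 10 were called, where 0.00728% of the 13734 genes tested, 1 gene, was called. That gene was *H2afb1* (log2 -2.71 ± 0.17, adjusted p = 9.54e-07). An unadjusted p under 0.05 was found for 3 of the 10 and for 870 of all genes. *Spaca3* had 52.2, 52.2 and 46.2 normalised CPM in WT and 60.1, 59.4 and 64.3 in KO libraries (log2 0.28 ± 0.10, 95% interval 0.06 to 0.49, adjusted p = 0.683). *Spaca1* had 126, 134 and 120 in WT and 151, 150 and 146 in KO libraries (log2 0.22 ± 0.10, 95% interval 0.01 to 0.43, adjusted p = 0.769). *Spink2* had 192, 157 and 115 in WT and 202, 181 and 201 in KO libraries (log2 0.32 ± 0.14, 95% interval 0.01 to 0.63, adjusted p = 0.772). The *Spink2* value was 0.16 without WT condensing replicate 3 and 0.50 without WT condensing replicate 1.

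The values of *Spaca3*, *Spaca1* and *Acrv1* did not overlap between the genotypes and were higher in KO, 3 of the 10 where 12.1% of all genes tested had no overlap. Log2 fold changes ran from -0.03 for *Dpy19l2* to 0.32 for *Spink2*. Leaving out WT condensing replicate 3 turned the direction of *Acr* (0.05 to -0.06), *Acrbp* (0.09 to -0.03) and *Zpbp2* (0.08 to -0.04). Leydig cell markers (6 genes) were at 146 to 230 CPM in WT and 88.1 to 133 in KO condensing libraries, and their part in these differences was not tested.

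**Figure D5:**
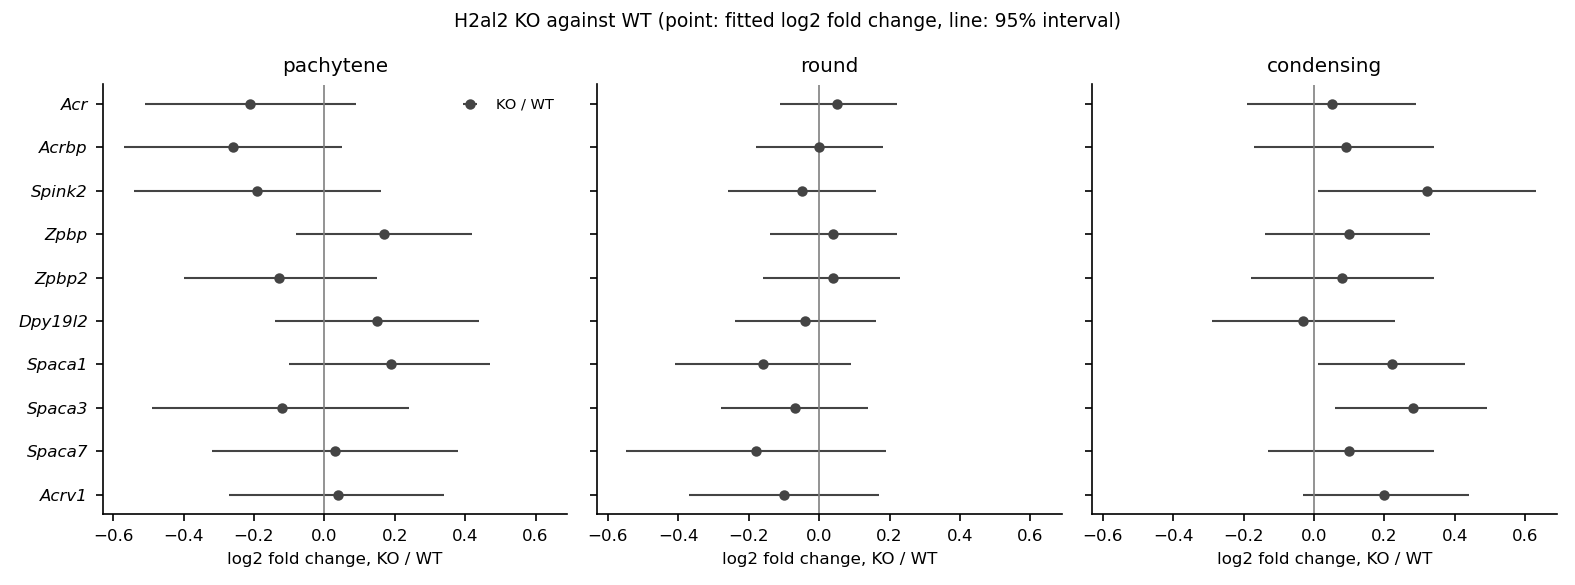
Fitted log2 fold change of H2al2 KO against WT (point) with its 95% interval (line) for the 10 genes in pachytene, round and condensing cells. The points lie between -0.26 and 0.19, between -0.18 and 0.05 and between -0.03 and 0.32, and none was called at an adjusted p under 0.05.

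Whether the KO effect differed between stages was tested as an interaction over 18 libraries. From pachytene to round spermatids 0 of the 10 were called, where 0.0% of the 14479 genes tested were (1050 at an unadjusted p under 0.05), with differences of the log2 fold changes from -0.34 (*Spaca1*, adjusted p = 0.676) to 0.27. From round to condensing spermatids 0 of the 10 and 0.0% of all genes were called (407 at an unadjusted p under 0.05), with differences from -0.01 to 0.38 (*Spaca1*, adjusted p = 1.0). That *Acrbp* was called from pachytene to round spermatids in KO and not in WT is therefore not shown to be a difference between the genotypes.

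The KO spermatozoa had 1 library and were not tested. Intervals here cover counting error only. *Spaca1* had 36.8 normalised CPM in this library (121 counts, 95% Poisson interval 30.6 to 44.0), against 21.6 and 20.1 in the WT libraries (74 and 58 counts, 16.9 to 27.1 and 15.3 to 26.0). *Acr* had 16.7 (12.6 to 21.8) against 33.8 and 34.3, *Dpy19l2* 36.8 (30.6 to 44.0) against 66.5 and 68.7, and *Spink2* 15.5 (11.6 to 20.4) against 28.0 and 30.2. *Spaca1* was the 1 gene of the 10 above both WT libraries, *Spaca3* with 7.61 lay between them (5.25 and 7.98), and the other 8 lay below both. For *Acrv1*, *Spaca7* and *Zpbp* the interval of the KO library overlapped that of a WT library. The same KO library held macrophage markers at 1080 CPM against 242 and 245, and elongating spermatid markers at 10800 against 28900 and 32600, and the part of this in the values was not tested.

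Other genes of the acrosome were taken from 3 lists. A list of 23 further genes held acrosomal contents and membrane proteins, such as the hyaluronidase gene *Hyal5*. From pachytene to round spermatids in WT 21 of them rose and 0 fell, where 34.4% of all genes tested rose and 35.9% fell. The median log2 fold change of the 23 was 1.97, beside -0.02 for all genes. *Sppl2c*, a signal peptide peptidase family member of spermatids, rose from 82.0 ± 32.6 to 438 ± 0.654 normalised CPM (SD, n = 3, log2 2.45, adjusted p = 1.62e-06), and *Hyal5* from 32.5 ± 2.95 to 172 ± 34.0 (log2 2.44, adjusted p = 5.74e-08). From round to condensing spermatids 19 of the 23 fell and 1 rose, where 21.8% of all genes tested fell and 28.3% rose. The gene that rose was *Crisp2* (2450 ± 365 to 3950 ± 444, log2 0.71, adjusted p = 0.00745). *Tmem95*, a sperm membrane protein of egg fusion that stood at 4.0 ± 0.213 in round spermatids (log2 -1.51), and the lysozyme-like gene *Lyzl6* (log2 -1.27) fell most. The 4 steep genes had log2 rises near this median, and the other 6 of the 10 lay below it.

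Of 18 genes for Golgi traffic and acrosome shaping, 8 rose and 5 fell from pachytene to round spermatids in WT, where 34.4% of all genes tested rose and 35.9% fell, with a median of 0.05. *Fam71f1* rose from 67.5 ± 21.3 to 384 ± 46.1 normalised CPM (log2 2.54) and *Actl7a*, an actin-related protein under the acrosome, from 98.3 ± 31.9 to 409 ± 4.26 (log2 2.09). *Gopc*, a Golgi protein needed for vesicles to reach the acrosome, fell from 80.7 ± 18.4 to 12.9 ± 0.587 (log2 -2.61), and *Vps54*, a tethering factor of retrograde traffic, from 36.0 ± 6.79 to 11 ± 0.528 (log2 -1.68). From round to condensing spermatids 2 of the 18 rose and 7 fell, where 28.3% of all genes tested rose and 21.8% fell. Those that rose were these same *Gopc* (log2 1.18) and *Vps54* (log2 1.01). The falls were led by *Spata46*, listed as *1700015E13Rik* (log2 -1.12), and *Fam170b* (log2 -0.87).

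Of 15 genes for the membrane fusion machinery of the acrosome reaction, 11 were tested over the WT stages, and 3 rose and 3 fell in each of both steps, shares close to those of all genes (34.4% and 35.9% in the first step, 28.3% and 21.8% in the next). *Plcd4*, a phospholipase C of the acrosome reaction, rose from 131 ± 12.7 to 283 ± 15.8 normalised CPM (log2 1.14) and fell in condensing spermatids (log2 -0.67). *Stx2*, a syntaxin, followed it with 0.64 and -0.75. *Rab27a* fell to round spermatids (log2 -1.42), and *Vamp2*, a vesicle SNARE, rose in condensing spermatids (log2 0.59). From condensing spermatids to WT spermatozoa 21 of 22 tested genes for contents and membranes fell and 0 rose, 14 of 18 for shaping fell and 3 rose, and 9 of 13 for fusion rose and 1 fell, where 36.6% of all genes tested rose and 35.8% fell. The macrophage markers at 242 and 245 CPM in these libraries moved with the fusion genes, and their part was not tested. In the 3 comparisons of KO with WT edgeR called 0 genes of the 3 lists. At an unadjusted p under 0.05 the lists together held 6 of 50 tested in pachytene, 1 of 52 in round and 6 of 53 in condensing cells, beside 6.66%, 5.88% and 6.33% of all genes.

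Genes with the most similar profile were sought by the correlation of group means over the 8 groups (4 stages by 2 genotypes) with the mean profile of the 10, among 9372 genes. *Stk36* (r = 0.9991), *1700022I11Rik* (0.9991), *Btbd16* (0.9989), *Dst* (0.9986) and *Cfap45* (0.9979) came first. *Stk36* had a mean of 151 normalised CPM in WT pachytene, 275 in round, 158 in condensing cells and 35.3 in spermatozoa. These values share libraries and depth with those of the acrosome genes and are a description. Within the 10, *Spaca1* was the least like the other 9 (r = 0.865) and *Zpbp* the most (r = 0.982).

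In the mouse genome (GENCODE M21, mm10) the 10 protein-coding genes lie on 7 chromosomes. *Acr* lies at chr15:89568326-89574585, *Acrbp* at chr6:125049689-125063267, *Acrv1* at chr9:36693220-36698843, *Spaca1* at chr4:34024874-34050191 and *Spaca3* at chr11:80858365-80867814. *Spaca7* lies at chr8:12573029-12600744, *Zpbp* at chr11:11279626-11462408, *Zpbp2* at chr11:98551097-98558665, *Spink2* at chr5:77205107-77211471 and *Dpy19l2* at chr9:24557047-24696293. In the annotation the span of *Gm44597* overlaps that of *Acrbp* on the same strand, and reads from any shared exon cannot be told apart. The snoRNA gene *Gm26458* likewise overlaps the span of *Zpbp* on its strand. Whether exons are shared in these overlaps was not examined. Overlaps on the opposite strand (*4930557K07Rik* with *Acrbp*, *Cypt4* with *Dpy19l2*, *D630011A20Rik* with *Spaca7*, and *Spata48*, *Gm12598* and *Gm12599* with *Zpbp*) are kept apart by the stranded counting.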

How the data were processed

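RNA of the fractions was depleted of ribosomal RNA and sequenced with a stranded kit. The authors aligned the reads to mm10 with STAR 2.7.11b and counted those within exons on the transcribed strand with HTSeq, leaving out reads that aligned to several places, and deposited raw counts per gene for each library, with no normalization. The 5 rows that name no gene held 34.6% to 57.7% of each library's counts and were left out. Gene families with near-identical copies lose reads by this counting.

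The genotype and stage of each library were taken from the labels. The genes, lists, groupings and tests were chosen with earlier results of these data known, and the 10 acrosome genes, the target of the KO and, from each of 3 other lists, the 2 called genes (or fewer) with the largest rise and the largest fall in the first 2 WT comparisons were named. A gene that this rule also selects is not reported here. Levels are CPM normalised by TMM factors over all 21 libraries, and levels per kilobase use GENCODE M21 exon lengths, known for 24064 genes (98.4%). Differences were tested across all genes with edgeR 4.0.16 in R 4.3.3 (quasi-likelihood test, TMM, filterByExpr, Benjamini-Hochberg adjustment, threshold 0.05). The stage changes of a genotype were fitted on its 9 libraries, each KO comparison on 6, the interactions on 18 and WT spermatozoa with condensing spermatids on 5. All 10 genes passed the filter in each comparison. The scripts were tested on simulated counts. Profiles were compared on log2(CPM + 0.5), for genes with a mean of at least 10 CPM. Intervals of single libraries are exact 95% Poisson intervals.

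The alternatives were DESeq2 1.42.0, its size factors, library size alone, no filter, a minimum of 10 counts in each library fitted, 1 fit on 18 libraries or on 11 WT libraries, the replicate number as a block, WT round replicates 2 and 3 summed, and each library left out. Same-numbered libraries were checked for shared deviations from their group means in 8 pairs of groups. Every correlation was over 0.1 in WT and KO round spermatids alone (0.102 to 0.352). In the other 7 pairs of groups they ran from -0.263 to 0.350. These ranges overlap and the labels do not say what the numbers mark, so a pairing is not shown. The main fits used no pairing, and the block is given as an alternative. RefSeq promoter windows were searched for short motifs on both strands.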

Additional observations from a re-analysis of the deposited data

Results flagged for a closer look

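*Spaca1* in the KO spermatozoa library, which no test used, stood above both WT spermatozoa libraries beyond counting error, at 36.8 normalised CPM (121 counts, 95% Poisson interval 30.6 to 44.0) against 21.6 and 20.1. That was 24.7% of the KO condensing mean, against 17.0% and 15.9% of the WT condensing mean in the WT libraries. The summed level of the 10 genes was lower in the same KO library, 249 CPM against 371 and 356. In the other direction, the intervals of *Acr*, *Acrbp*, *Zpbp2*, *Spink2* and *Dpy19l2* in the KO library lay below those of both WT libraries. The KO library also held macrophage markers at 1080 CPM against 242 and 245, and their part was not tested. With 1 library these differences have no replicate check.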

How the results depend on the processing

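The count of acrosome genes called stayed within 1.5 times its value under every alternative in each of the 10 comparisons: 5 to 9 of the 10 rose from pachytene to round spermatids in WT and 8 in KO, 10 of 10 fell in each later step and 0 were called between genotypes or in the interactions. Of 1098 single-gene values, 1051 changed neither sign nor call, 26 changed sign, 13 lost and 8 gained a call. The sign changes were in differences near 0. *Spink2* in WT from pachytene to round moved to 0.04 with at least 10 counts in every library, and in KO to -0.06 with library size alone, as did *Dpy19l2* (-0.06). With library size alone *Spaca7* moved to -0.0 in KO against WT pachytene cells, and *Acrbp* moved to -0.02 in round spermatids with WT replicates 2 and 3 summed. The cause was not tested. Library size alone moved the median of all genes to -0.20 from pachytene to round in WT, to -0.15 in KO and to 0.11 from round to condensing in WT.

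With each library left out, *Spink2* ran from -0.18 to 0.05 in WT and from -0.06 to 0.23 in KO from pachytene to round. In KO against WT pachytene cells *Acrv1* ran from -0.05 to 0.15 and *Spaca7* from -0.13 to 0.10. In round spermatids *Acrbp* ran from -0.05 to 0.05, *Acrv1* from -0.21 to 0.00, *Spaca3* from -0.11 to 0.00, *Zpbp* from -0.02 to 0.10, *Zpbp2* from -0.05 to 0.10, *Spink2* from -0.10 to 0.05 and *Dpy19l2* from -0.13 to 0.03. In condensing spermatids *Acr* ran from -0.06 to 0.12, *Acrbp* from -0.03 to 0.16, *Zpbp2* from -0.04 to 0.18 and *Dpy19l2* from -0.15 to 0.05.

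The count of all genes called between genotypes moved more than that of the acrosome genes. In pachytene cells it was 0, and 2 with DESeq2, 1 without a filter, 4 with 1 fit on 18 libraries and 243 without WT replicate 3. In round spermatids it was 2, and 6 with DESeq2, 1 with its size factors, with 1 fit on 18 libraries or with the summed replicates, 28 without a filter, and 1 to 264 with a library left out, the most without WT replicate 1. In condensing spermatids it was 1, and 13 with DESeq2, 7 with library size alone, 27 without a filter and up to 24 without WT replicate 2. The interaction of round and pachytene cells called 0, and 1 with DESeq2 or without a filter and up to 4 without WT round replicate 1, and that of condensing and round cells 0, and 1 without the same library. The replicate block raised the count to 61 in round and 26 in condensing spermatids, with 0 acrosome genes among them. It changed no call of an acrosome gene. Depth limited the spermatozoa most, where *Spaca7* rested on 10 to 21 counts.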
